A study of Mus musculus with 16 samples.

Results

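The 42 genes described here act in mitosis, from the switch that starts it, through the kinetochore and the spindle, to the separation of the daughter cells. They were picked by gene symbol from the 22869 genes of the deposited RNA count table, and all 42 were found. The study compared sorted pancreatic β cells, the insulin-secreting cells of the islets, between old and young mice. RNA was sequenced from 3 old and 2 young libraries of MIP-GFP/Bl6 mice, in which green fluorescent protein under the insulin promoter marks the cells to be sorted. The old RNA libraries came from mice of 15, 16 and 17 months and the young ones from mice of 4 to 6 weeks, and each library was a pool of several mice. The histone marks H3K27me3 and H3K4me1 and CpG methylation were mapped in 1 old library (16 to 18 months) and 1 young library (4 to 6 weeks) each, and H3K27ac in 1 young library, from mice labelled C57Bl6. For the old bisulfite pool the design text and the label differ in age range, and the sources used here do not say whether the C57Bl6 mice carried the reporter. The design text also names 3 young RNA samples and 2 old H3K27me3 samples, of which 2 and 1 were analysed here. No other allele and no treatment is named for either age.

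Gene counts numbered 23559908 to 33562822 in the old RNA libraries, against 6377619 in the shallower and 12892123 in the deeper of the young ones. The 10 markers of β cells summed to 332000 to 437000 CPM (counts per 1000000) in old and 257000 to 315000 CPM in young libraries, with 3 called higher in old, none lower and a median log2 fold change of 0.9, and Mafa stood at 1.06 to 1.39 CPM in old and 1.45 to 1.63 CPM in young libraries. Of all 15544 genes tested, 7.93% were called lower and 3.17% higher in old. Many markers of other cell types were higher in the young libraries, which differed in them from each other. The 13 stellate and fibroblast markers summed to 22.8 to 36.4 CPM in old libraries, against 613 CPM (shallower) and 5420 CPM (deeper) in the young ones, and all 13 were called lower in old. Of the 12 endothelial markers 11 were lower in old (69.2 to 100 CPM in sum in old and 569 and 1190 CPM in young libraries), of the 17 acinar markers tested 13 (225 to 250 CPM in old and 2110 and 2590 CPM in young), of the 6 delta and PP markers all 6 (234 to 482 CPM in old and 3240 and 9670 CPM in young), of the 8 alpha markers 2 (913 to 1850 CPM in old and 2030 and 31800 CPM in young), of the 8 duct markers 4 (266 to 303 CPM in old and 401 to 532 CPM in young) and of the 11 macrophage and lymphocyte markers 4 (26.2 to 39.3 CPM in old and 204 and 280 CPM in young). The acinar factor Ptf1a had no count in the 3 old libraries and the shallower young library alone held any (28 counts). These values stand beside every RNA result below, and the part of other cell types in those results was not tested. In such bulk samples, fewer cells of a type and less RNA per cell cannot be told apart.

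Entry into mitosis is driven by the kinase Cdk1 with its A and B cyclins. Kinetochores, built on centromeres, then attach chromosomes to spindle microtubules, and a checkpoint holds back the anaphase-promoting complex until attachment is complete. Separase cleaves cohesin afterwards, and a central spindle and a contractile ring divide the cell. Many genes of this program are transcribed only late in the cell cycle, and their promoters are known for a cell cycle genes homology region (CHR) near the start, bound by MuvB complexes, and for CCAAT boxes upstream, bound by NF-Y. β cells of young mice divide, and they do so less often with age.

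Promoter letters are shown because most members share them. RefSeq promoters on GRCm38.p6, running from 250 bases before to 50 bases after the start, were matched by gene symbol for 35 of the 42 members. Their starts need not be those of the transcripts counted in RNA, which was not checked. The CHR core was searched as TTTGAA and the CCAAT box as CCAAT, both on either strand, where TTCAAA and ATTGG are the reverse complements, and neither motif contains the other. Between 100 bases before the start and the promoter's end, TTTGAA was found in 27 of the 35 member promoters (77.1%), against 9.23% of the promoters of 27025 genes. At least 2 CCAAT boxes were found anywhere in 20 of the 35 (57.1%), against 13.3% of all, and both features together in 18 (51.4%), against 1.16% of all. A match is a description of letters and not a site of binding. The stretches below hold a match within that window in 13 of the members that were lower in old RNA and in Spc25, which was not. Only the first match in the window is in capitals, and in Kif20b a second TTTGAA follows directly in small letters.
Mki67: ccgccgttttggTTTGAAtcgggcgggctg
Top2a: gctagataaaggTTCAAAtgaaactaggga
Ccnb2: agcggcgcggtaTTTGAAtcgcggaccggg
Cdc20: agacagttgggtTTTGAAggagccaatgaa
Espl1: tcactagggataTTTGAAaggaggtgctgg
Cenpf: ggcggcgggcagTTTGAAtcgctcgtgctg
Ttk: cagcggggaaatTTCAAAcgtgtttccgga
Kif11: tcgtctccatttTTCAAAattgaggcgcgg
Kif4: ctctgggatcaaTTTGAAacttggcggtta
Hmmr: agttgaggtaaaTTTGAAttcaggcgagct
Aspm: ggaggcgcgataTTTGAAccgagcaaaagc
Kif20b: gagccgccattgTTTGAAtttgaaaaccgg
Ect2: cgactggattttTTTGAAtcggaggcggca
Spc25: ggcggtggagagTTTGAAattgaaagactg

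Whole promoters, with positions on GRCm38.p6, show how the boxes are arranged. Ccnb2 holds 3 CCAAT boxes, at 87, 54 and 21 bases before the start, followed by TTTGAA from base 5 after it, with a further TTTGAA 167 bases before the start, and Bub1 holds 2 CCAAT boxes at 68 and 42 bases before the start and no TTTGAA. Mki67, the most abundant member in young cells by CPM, has its boxes farther upstream, with CCAAT letters at 188, 166 and 141 bases and TTTGAA at 116 and 98 bases before the start. Spc25, whose RNA was not lower in old cells, also has CCAAT boxes followed by TTTGAA, with CCAAT at 55 and 23 bases before the start and TTTGAA from base 25 after it. The capitals mark every TTTGAA and CCAAT match on either strand.
Mki67 (chr7:135716330-135716629, minus strand): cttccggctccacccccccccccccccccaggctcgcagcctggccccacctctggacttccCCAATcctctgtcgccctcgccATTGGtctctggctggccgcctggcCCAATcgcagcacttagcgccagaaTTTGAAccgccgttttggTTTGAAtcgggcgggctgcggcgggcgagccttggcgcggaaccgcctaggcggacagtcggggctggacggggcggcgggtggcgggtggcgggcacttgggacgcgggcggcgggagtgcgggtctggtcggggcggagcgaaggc
Ccnb2 (chr9:70421505-70421804, minus strand): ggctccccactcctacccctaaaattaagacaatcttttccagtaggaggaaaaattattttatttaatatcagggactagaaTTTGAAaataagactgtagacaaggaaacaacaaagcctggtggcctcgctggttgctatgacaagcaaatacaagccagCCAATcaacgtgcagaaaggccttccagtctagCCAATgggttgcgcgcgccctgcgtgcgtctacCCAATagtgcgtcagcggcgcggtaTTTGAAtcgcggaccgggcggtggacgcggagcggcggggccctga
Bub1 (chr2:127831810-127832109, minus strand): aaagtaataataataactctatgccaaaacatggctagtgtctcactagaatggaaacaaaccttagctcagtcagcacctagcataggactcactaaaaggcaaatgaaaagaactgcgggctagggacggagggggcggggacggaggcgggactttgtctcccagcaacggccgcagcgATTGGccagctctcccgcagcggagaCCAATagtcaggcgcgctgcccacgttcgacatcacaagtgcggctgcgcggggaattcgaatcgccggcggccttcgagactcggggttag
Spc25 (chr2:69206164-69206463, minus strand): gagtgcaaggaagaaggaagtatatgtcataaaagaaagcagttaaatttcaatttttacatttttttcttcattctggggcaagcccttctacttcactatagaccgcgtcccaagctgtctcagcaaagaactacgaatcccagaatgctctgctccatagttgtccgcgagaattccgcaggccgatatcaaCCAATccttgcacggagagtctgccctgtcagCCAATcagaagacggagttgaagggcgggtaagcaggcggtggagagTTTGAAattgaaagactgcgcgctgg

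**Figure D1:**
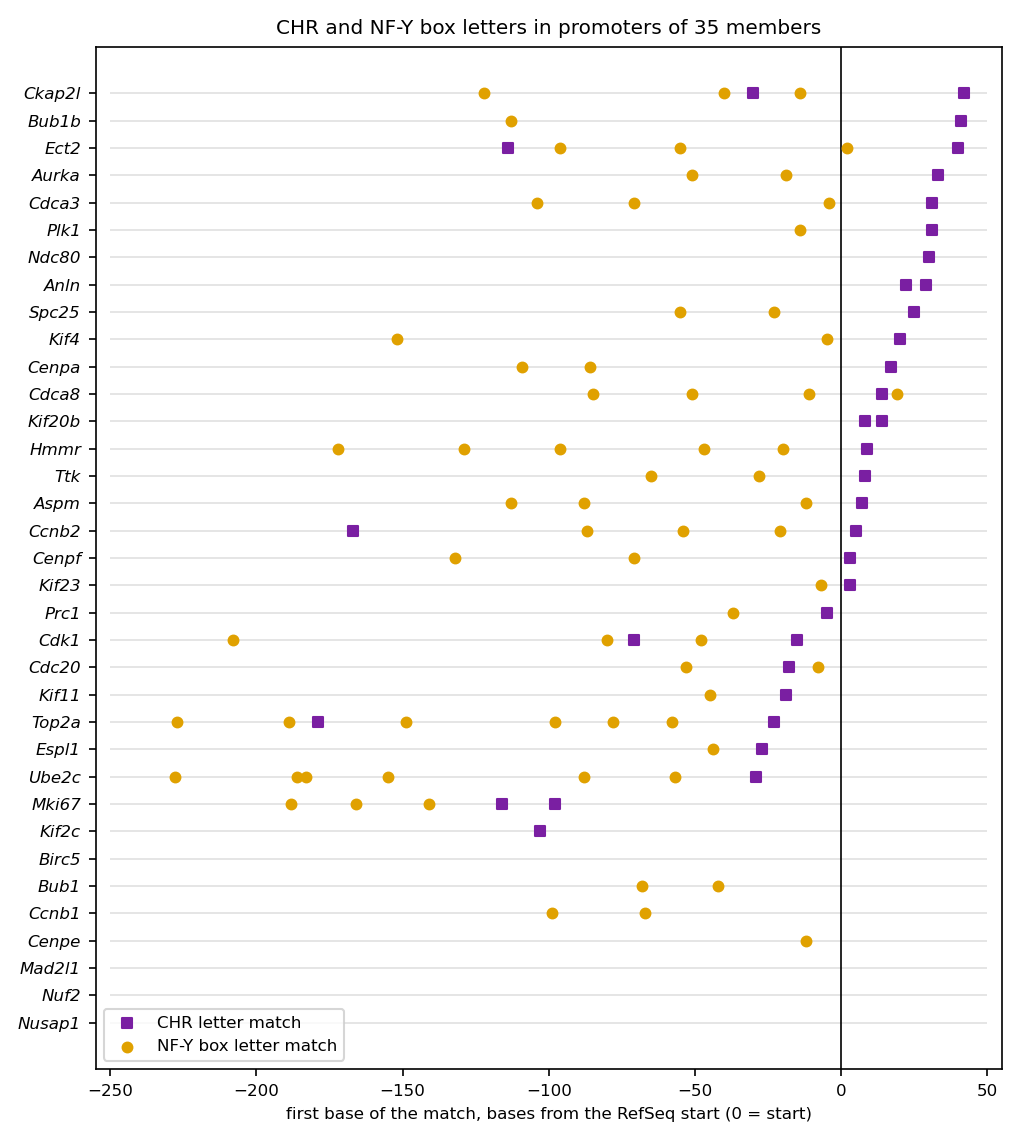
Position of each match of the CHR core (squares) and of the NF-Y box (circles) in the promoters of the 35 members with a RefSeq entry, in bases from the start, 1 member a row. A square lies within 100 bases before the start or after it in 27 of the 35 promoters, and 7 members hold no square.

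In old β cells 17 of the 42 members had less RNA than in young ones and none had more. Of 15544 genes tested with edgeR's quasi-likelihood test (two-sided, Benjamini-Hochberg adjusted p under 0.05), 7.93% were called lower and 3.17% higher in old, 11.1% in all. Of the 42 members 41 passed the filter on low counts, 24 of these did not pass the test, and Ccnb1 was not tested. At an unadjusted p under 0.05, 32 members were lower and 0 higher, against 18.1% lower and 11.7% higher of all genes tested. The median log2 fold change of the tested members was -4.09, against -0.05 for all genes tested, and 38 of the 41 were negative, against 51.8% of all genes. All 3 old libraries lay below both young libraries in 34 of the 41 tested members, against 24.5% of all tested genes, and in Ccnb1 as well. All old libraries lay above both young ones in 1 member, Kif20a, against 24.4% of all tested genes, and the ages overlapped in Cdk1, Aurka, Foxm1, Spc25, Kif2c and Prc1. Without old library 1, 2 or 3 the members called lower numbered 5, 6 and 5, against 1.95, 2.63 and 1.81% of all genes tested then. Without the shallower or the deeper young library they numbered 24 and 19, against 12.1 and 18.2% of all genes tested then, under the assumption that a lone young library varies as old ones do. DESeq2 called 28 lower and 0 higher, against 15.7% lower and 7.17% higher of all genes. Besides the 17 called by edgeR these were Ccna2, Plk1, Aurkb, Bub1b, Foxm1, Cenpa, Cenpe, Ube2c, Cdca3, Anln and Kif23. Of these, Foxm1, Cenpe and Anln also passed in edgeR with no filter on low counts, and Anln with RLE factors. Mki67, Top2a and Cenpf were called in each of the 9 alternatives tried, and the other 14 called members each missed the threshold without at least 1 old library.

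**Figure D2:**
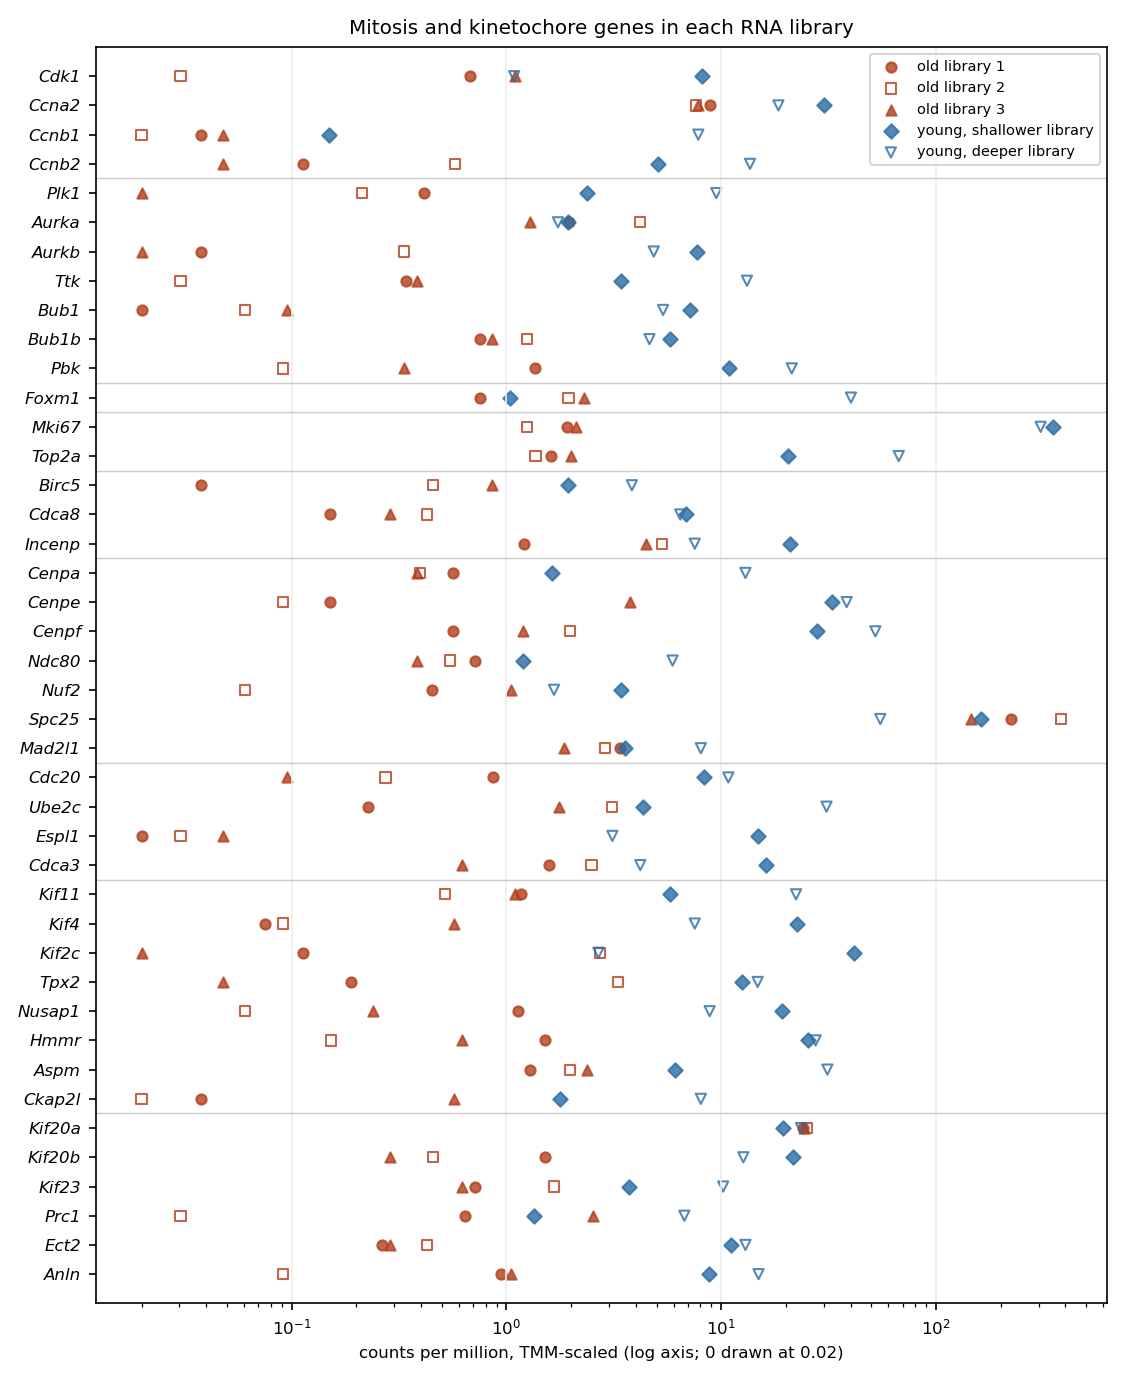
CPM (log axis, 0 drawn at 0.02) of the 42 members in the 3 old libraries (red) and the 2 young libraries (blue), 1 member a row, with grey lines between roles. In 35 members every red point lies left of every blue one, while Spc25 and Kif20a stand at the right in both colours.

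Most members were barely counted in old cells. A level of at least 1 CPM was reached by 15, 17 and 18 of the 42 members in old libraries 1, 2 and 3, against 41 in the shallower and 42 in the deeper young library, and at least 10 CPM by 2 members in each old library, against 18 and 22. Of the 17 called members 13 had a mean below 1 CPM in old cells. All 42 members added up to 287, 455 and 215 CPM in the old libraries, against 959 CPM (shallower) and 960 CPM (deeper) in the young ones. Spc25 and Kif20a, which were not lower in old, held 248, 407 and 170 CPM of this in old libraries. In the young libraries they held 181 CPM (shallower) and 78.5 CPM (deeper). Leaving aside Mki67, Spc25 and Kif20a, the other 39 members added up to 36.4, 47.2 and 43.3 CPM in the old libraries, against 429 CPM (shallower) and 575 CPM (deeper) in the young ones. Gene by gene the young libraries were less alike, with a median absolute log2 ratio between them (0.5 CPM added) of 1.08 over the members, against 0.87 over all genes tested. More than 5-fold differences between the young libraries were seen in 8 members, of which 6 were higher in the deeper library and 2 (Kif2c and Cdk1) in the shallower one. In old cells 7 members had no count in at least 1 library, and in 10 members a single old library supplied over 75% of the summed old CPM, which was library 1 in 2 of them, library 2 in 4 and library 3 in 4.

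Of Cdk1 and its cyclins, 1 of the 3 tested members fell in old cells. Ccnb2, a B-type cyclin (chr9:70255496-70269361 on mm9, as are the positions of all genes below), had 0.113, 0.577 and 0.0477 CPM in the old libraries, against 5.05 and 13.6 CPM in the young ones, in the order old libraries 1, 2 and 3, shallower young and deeper young library, here and below. The groups did not overlap, and the difference was a log2 fold change of -5.18 (SE 1.28, adjusted p = 0.0405). Without 1 old library at a time its adjusted p was 0.0524 to 0.132, and without the deeper young library 0.0751. Ccnb1, the other B-type cyclin (chr13:101548694-101556441), was too thinly counted to be tested, with 2 counts in the old group, against 109 in the young group, of which 108 came from the deeper library. Scaled for depth the ratio of old over young was 0.00469, with an exact interval for counting error of 0.00056 to 0.0173. Ccna2, cyclin A2, had 8.85, 7.65 and 7.77 CPM in the old libraries, against 30.1 and 18.5 CPM in the young ones. All old values lay below both young ones, and a log2 fold change of -1.58 (SE 0.47, adjusted p = 0.0663) did not pass the test. Its span shares 863 bases with Exosc9 on the other strand, and the sources do not say if strand was used in counting. Without the deeper young library Ccna2 passed (adjusted p = 0.0084), and without the shallower one Ccnb1 was tested and passed (adjusted p = 0.00605). Cdk1, the kinase itself, had 0.678, 0.0304 and 1.1 CPM in the old libraries, against 8.17 and 1.09 CPM in the young ones, so that the ages overlapped and the young libraries differed 7.52-fold from each other. Near copies of Ccnb1 and Ccnb2 are listed in RefSeq as pseudogenes, and reads they may share make these values less certain.

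Among the 7 mitotic kinases 3 fell, Ttk, Bub1 and Pbk, and 4 did not pass the test. Bub1, a checkpoint kinase at the kinetochore (chr2:127625936-127657595), had 0, 0.0607 and 0.0953 CPM in the old libraries, against 7.13 and 5.36 CPM in the young ones, or 4 counts over all old libraries. This was a log2 fold change of -6.77 (SE 1.44, adjusted p = 0.0272), and without 1 old library at a time its adjusted p was 0.0776 to 0.0808. Pbk, a kinase active in mitosis (chr14:66424748-66436659), had 1.36, 0.0911 and 0.334 CPM in the old libraries, against 10.8 and 21.3 CPM in the young ones, a log2 fold change of -4.75 (SE 1.13, adjusted p = 0.0365), and without 1 old library at a time its adjusted p was 0.0502 to 0.123. Old library 1 held most of the little Pbk found in old cells. Ttk, the Mps1 kinase that starts the spindle checkpoint (chr9:83728296-83765997), had 0.339, 0.0304 and 0.381 CPM in the old libraries, against 3.42 and 13.2 CPM in the young ones, a log2 fold change of -5.04 (SE 1.31, adjusted p = 0.0468). Its adjusted p was 0.0967 to 0.129 without 1 old library at a time and 0.146 without the deeper young library. The Polo-like kinase Plk1 (log2 fold change -4.77, adjusted p = 0.0817), the Aurora kinase Aurkb of the passenger complex (log2 fold change -5.54, adjusted p = 0.059) and the checkpoint protein Bub1b (log2 fold change -2.44, adjusted p = 0.145) had all old values below all young ones and did not pass. Plk1 passed without the shallower young library (adjusted p = 0.0233) and Aurkb without the deeper one (adjusted p = 0.0271). Aurka, the Aurora kinase of the spindle poles, had 1.96, 4.19 and 1.29 CPM in the old libraries, against 1.93 and 1.74 CPM in the young ones. Its ages overlapped, and a log2 fold change of 0.44 (SE 1.12, adjusted p = 0.83) did not pass (log2 fold change -0.21 without old library 2).

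Foxm1, the transcription factor that acts with MuvB on these promoters (chr6:128313012-128325904), rested on 1 young library. It had 0.753, 1.94 and 2.29 CPM in the old libraries, against 1.04 and 40.2 CPM in the young ones, so the shallower young library lay within the range of the old ones and the deeper one far above. The difference, a log2 fold change of -3.64 (SE 1.22, adjusted p = 0.0888), did not pass the test. It passed in edgeR with no filter on low counts (adjusted p = 0.0375) and in DESeq2 (adjusted p = 0.0132). The log2 fold change reversed to 0.68 without the deeper young library and was -4.59 without the shallower one. Its span overlaps 4933413G19Rik on the same strand by 377 bases.

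Both members of the chromosome surface and condensation group fell, and both held their calls in all 9 alternatives. Mki67, which encodes the Ki-67 antigen that coats mitotic chromosomes (chr7:142881471-142908062), had 1.92, 1.25 and 2.1 CPM in the old libraries, against 349 and 307 CPM in the young ones. The old mean was 1.75 ± 0.45 CPM (SD, n = 3) and the young mean 328 ± 29.5 CPM (SD, n = 2), a log2 fold change of -7.55 (SE 0.33, adjusted p = 0.000189). The young libraries lay close to each other and far above all old ones. Top2a, the topoisomerase that untangles sister chromosomes (chr11:98854261-98885503), had 1.62, 1.37 and 2.0 CPM in the old libraries, against 20.4 and 67.0 CPM in the young ones, a log2 fold change of -4.72 (SE 0.61, adjusted p = 0.0061). Its young values were farther apart, and all old ones lay below both. Counts were also divided by the relative transcript length implied by the deposited tables and scaled to the same total (per 1000000), to set members beside each other. On this scale Mki67 stood at 0.308, 0.193 and 0.278 per 1000000 in old libraries, against 57.6 and 55.6 in young ones, and took rank 27 of the 42 members in old cells and rank 2 in young cells. The median of the other 39 members, without Spc25 and Kif20a, was 0.305, 0.239 and 0.243 per 1000000 in old libraries, against 4.16 and 5.76 in young ones. By this measure Mki67 lay below Spc25 in both young libraries and below Ube2c in the deeper one, and in old cells it lay near the median of the other members.

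In the chromosomal passenger complex, which carries Aurora B to centromeres and then to the central spindle, 1 of 3 members fell. Cdca8, its borealin subunit (chr4:124595709-124614161), had 0.151, 0.425 and 0.286 CPM in the old libraries, against 6.83 and 6.44 CPM in the young ones, a log2 fold change of -4.50 (SE 1.08, adjusted p = 0.0374), and without 1 old library at a time its adjusted p was 0.0857 to 0.128. The groups were well apart, with young values close to each other. Birc5, or survivin (log2 fold change -2.67, adjusted p = 0.263), and the scaffold Incenp (log2 fold change -1.96, adjusted p = 0.161) had every old value below every young one and did not pass. Incenp passed without the deeper young library (adjusted p = 0.0298). Without the filter on low counts, Cdca8 itself did not pass (adjusted p = 0.0729).

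Of the 7 centromere and kinetochore members 1 fell. Cenpf, which links kinetochores to dynein (chr1:191464493-191511965), had 0.565, 1.97 and 1.19 CPM in the old libraries, against 27.8 and 52.2 CPM in the young ones. Its means were 1.24 ± 0.706 CPM in old cells (SD, n = 3) and 39.98 ± 17.3 CPM in young cells (SD, n = 2), a log2 fold change of -5.0 (SE 0.66, adjusted p = 0.00657), and the call held in all 9 alternatives. Cenpe, the kinetochore kinesin, had 0.151, 0.0911 and 3.77 CPM in the old libraries, against 32.8 and 38.4 CPM in the young ones. It missed the test by little, with a log2 fold change of -4.76 (SE 1.35, adjusted p = 0.0589), and old library 3 held nearly all of its old counts. Without that library it passed (adjusted p = 0.0342), as it did without the shallower (0.0281) or the deeper young library (0.0259). The centromeric histone variant Cenpa (log2 fold change -4.02, adjusted p = 0.0625), Ndc80 (log2 fold change -2.69, adjusted p = 0.187) and Nuf2 (log2 fold change -2.28, adjusted p = 0.335) of the microtubule-binding Ndc80 complex, and the checkpoint protein Mad2l1 (log2 fold change -1.10, adjusted p = 0.447) had all old values below all young ones without passing, although Cenpa passed without the shallower young library (adjusted p = 0.00482).

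Spc25, a further subunit of the Ndc80 complex, was high in both ages. At chr2:69031952-69044247, it had 224, 382 and 146 CPM in the old libraries, against 162 and 55.01 CPM in the young ones, which made it the most abundant member in old cells both by CPM and by length-scaled level. The ages overlapped, and a log2 fold change of 1.21 (SE 0.53, adjusted p = 0.171) did not pass the test, although it passed as higher in old without the shallower young library (adjusted p = 0.0172). By length-scaled level it stood at 243 ± 128 per 1000000 in old cells (SD, n = 3) and 117 ± 75.7 per 1000000 in young cells (SD, n = 2). Its start lies 13808 bases from that of G6pc2, a gene of β cells that is transcribed in the opposite direction without overlap, and that neighbour was looked at after the values of Spc25 were seen. G6pc2 itself had a log2 fold change of 1.55 (SE 0.50, adjusted p = 0.0822) and did not pass. For every 100 counts of G6pc2 there were 4.56, 6.22 and 4.82 counts of Spc25 in old libraries 1, 2 and 3, against 6.66 in the shallower and 7.05 in the deeper young library, while Spc25 itself ranged from 55.01 to 382 CPM. Whether part of the Spc25 counts comes from G6pc2 transcripts was not tested, since the deposited tables give counts per transcript and no reads.

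Among the 4 members of the anaphase-promoting complex and separase group 2 fell. Cdc20, the activator that the checkpoint holds back (chr4:118105506-118109948), had 0.866, 0.273 and 0.0953 CPM in the old libraries, against 8.32 and 10.8 CPM in the young ones, a log2 fold change of -4.51 (SE 1.13, adjusted p = 0.0424), and without 1 old library at a time its adjusted p was 0.0749 to 0.12. Espl1, the protease separase (chr15:102126724-102154787), had 0, 0.0304 and 0.0477 CPM in the old libraries, against 14.8 and 3.11 CPM in the young ones, or 2 counts in old against 143 in young libraries. Scaled for depth its ratio of old over young was 0.00357, with an exact interval for counting error of 0.000428 to 0.0131, and its adjusted p was 0.0166, or 0.0592 to 0.0686 without 1 old library at a time. The young libraries differed in Espl1, yet both lay far above the old ones. The ubiquitin-conjugating enzyme Ube2c (log2 fold change -3.37, adjusted p = 0.0927) and Cdca3, an adaptor that marks a mitosis inhibitor for destruction (log2 fold change -2.69, adjusted p = 0.111), had all old values below all young ones and did not pass. Ube2c passed without the shallower young library (adjusted p = 0.0121) and Cdca3 without the deeper one (adjusted p = 0.0164). The span of Cdc20 overlaps that of Elovl1 by 16 bases.

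Spindle motors and microtubule binders formed the largest role group, and 5 of its 8 members fell. Kif11, the kinesin that pushes spindle poles apart (chr19:37450893-37496349), had 1.17, 0.516 and 1.1 CPM in the old libraries, against 5.79 and 22.3 CPM in the young ones, a log2 fold change of -3.92 (SE 0.90, adjusted p = 0.0326), with an adjusted p of 0.0995 to 0.108 without 1 old library at a time and 0.123 without the deeper young one. Kif4, a chromosome-bound kinesin (chrX:97821404-97922610), had 0.0753, 0.0911 and 0.572 CPM in the old libraries, against 22.4 and 7.53 CPM in the young ones, a log2 fold change of -5.94 (SE 1.18, adjusted p = 0.0227). RefSeq lists a pseudogene copy of Kif4, and without old library 1 or 2 its adjusted p was 0.0817 and 0.0714. Hmmr, a spindle pole and microtubule protein (chr11:40514890-40546939), had 1.51, 0.152 and 0.62 CPM in the old libraries, against 25.2 and 27.5 CPM in the young ones, a log2 fold change of -5.11 (SE 0.91, adjusted p = 0.0165). The young libraries were nearly alike in Hmmr, and its call was lost only without old library 3 among the 9 alternatives (adjusted p = 0.0783). Nusap1, which bundles microtubules near chromosomes (chr2:119444034-119475896), had 1.13, 0.0607 and 0.238 CPM in the old libraries, against 19.2 and 8.83 CPM in the young ones, a log2 fold change of -4.86 (SE 1.22, adjusted p = 0.0425), with an adjusted p of 0.0534 to 0.132 without 1 old library at a time and 0.053 without the shallower young one. Its span shares 208 bases with Oip5 on the other strand. Aspm, which gathers microtubule minus ends at the poles (chr1:141351350-141390665), had 1.28, 1.97 and 2.38 CPM in the old libraries, against 6.09 and 31.2 CPM in the young ones, a log2 fold change of -3.31 (SE 0.82, adjusted p = 0.0403), with an adjusted p of 0.111 to 0.142 without 1 old library at a time and 0.238 without the deeper young one. Kif2c, a kinesin that takes microtubules apart, had 0.113, 2.73 and 0 CPM in the old libraries, against 41.6 and 2.68 CPM in the young ones. Here the shallower young library alone was high and the deeper one lay at the level of old library 2, and a log2 fold change of -4.50 (SE 1.75, adjusted p = 0.13) did not pass, although it passed without the deeper young library (adjusted p = 0.014). The Aurora A activator Tpx2 (log2 fold change -3.51, adjusted p = 0.147) had most of its old counts in library 2, at 3.31 CPM, and passed without it (adjusted p = 0.0363), and the spindle pole protein Ckap2l (log2 fold change -4.61, adjusted p = 0.135) did not pass in any alternative.

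In cytokinesis 2 of 6 members fell. Ect2, the exchange factor that switches on RhoA at the cell equator (chr3:26996144-27052800), had 0.264, 0.425 and 0.286 CPM in the old libraries, against 11.1 and 13.0 CPM in the young ones. The young libraries were close to each other and every old value was far lower, a log2 fold change of -5.18 (SE 0.87, adjusted p = 0.0141), with an adjusted p of 0.0669 and 0.0654 without old library 1 or 3. Kif20b, a kinesin of the late midbody (chr19:34996848-35050221), had 1.51, 0.455 and 0.286 CPM in the old libraries, against 21.7 and 12.7 CPM in the young ones, a log2 fold change of -4.50 (SE 0.92, adjusted p = 0.0243), with an adjusted p of 0.0814 and 0.0819 without old library 2 or 3. The ring scaffold Anln (log2 fold change -4.09, adjusted p = 0.0512) and the central spindle kinesin Kif23 (log2 fold change -2.79, adjusted p = 0.112) had all old values below all young ones and did not pass, and in the microtubule bundler Prc1 the ages overlapped (log2 fold change -1.93, adjusted p = 0.454). Without the shallower young library both Anln (adjusted p = 0.0187) and Kif23 (adjusted p = 0.0341) passed. Kif20a, the kinesin that brings Polo-like kinase to the central spindle (chr18:34784278-34792931), had 24, 25.1 and 24.4 CPM in the old libraries, against 19.5 and 23.5 CPM in the young ones. Its values were nearly level over all libraries, with a log2 fold change of 0.19 (SE 0.37, adjusted p = 0.776), which did not pass. Its span shares 1595 bases with Cdc23 and 187 bases with Brd8, both on the other strand. Brd8 had a log2 fold change of 0.09 (SE 0.29, adjusted p = 0.87) and Cdc23 one of 0.86 (SE 0.34, adjusted p = 0.142), and the reads that Kif20a shares with them cannot be told apart without strand.

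**Figure D3:**
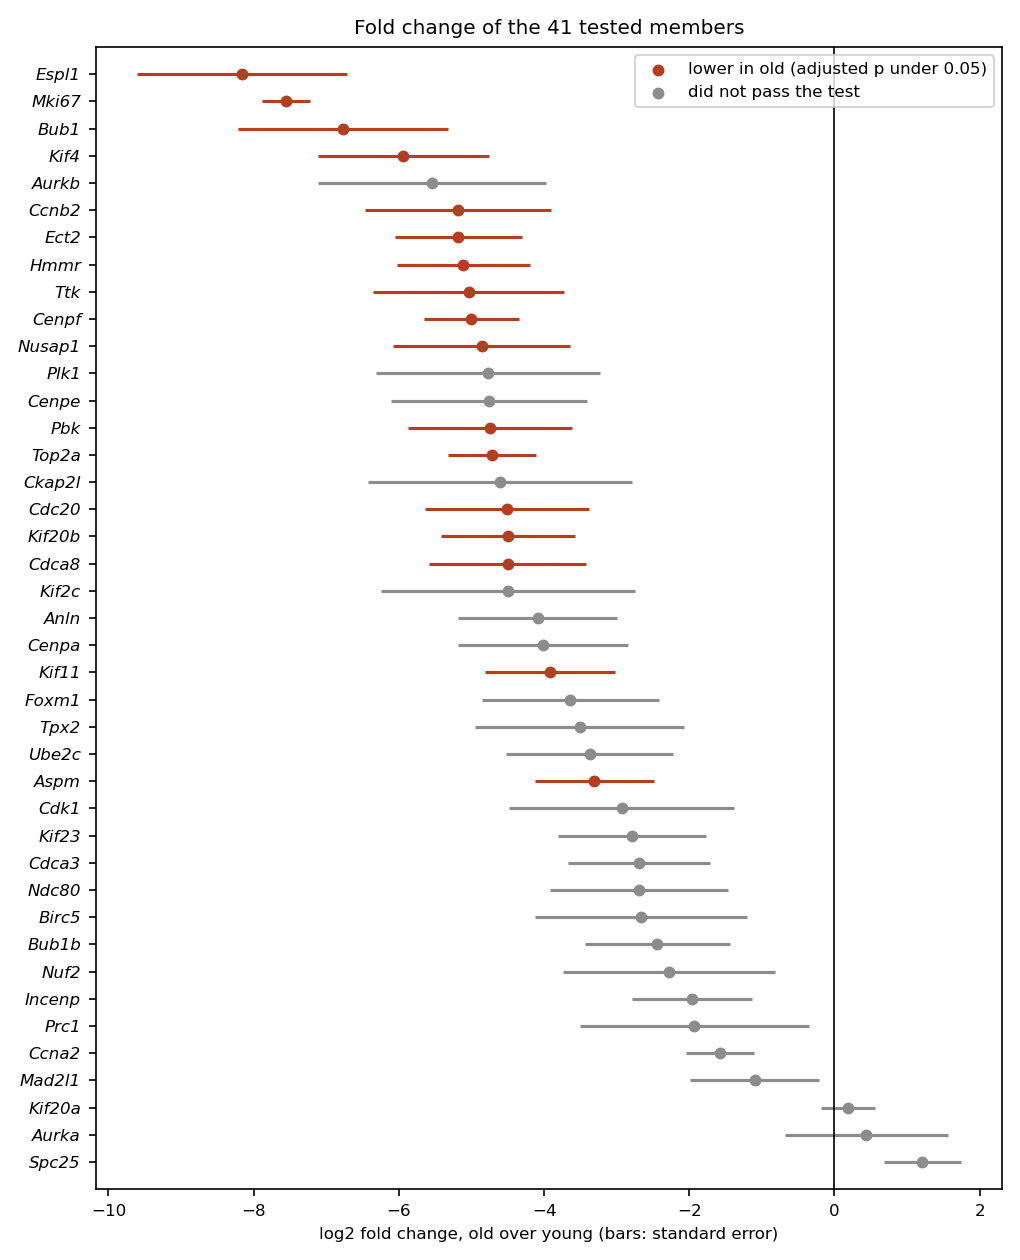
Log2 fold change of old over young with its standard error for the 41 tested members, sorted from the lowest, with the 17 called lower in old in red and those that did not pass the test in grey. Spc25, Aurka and Kif20a lie right of 0 (Aurka at -0.21 without old library 2), and Espl1 and Bub1, near the low end, rest on 2 and 4 counts in old cells.

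Other genes of the same machinery were read from 6 lists that leave out the 42 members. Of 138 such genes, 128 were tested, with a median log2 fold change of -0.59. In old cells edgeR called 14 of them lower (10.9%, against 7.93% of all genes tested) and 0 higher (against 3.17%). At an unadjusted p under 0.05, 32 of the 128 were lower and 4 higher, against 18.1% lower and 11.7% higher of all genes tested. DESeq2 called 28 lower (21.9% of the 128, against 15.7% of all genes) and 3 higher (against 7.17% of all genes). Without old library 1, 2 or 3 the number lower was 3, 4 and 1 (2.42, 3.23 and 0.8% of those tested, against 1.95, 2.63 and 1.81% of all genes). Without the shallower young library it was 26 (19.5%, against 12.1%), with 3 higher (8.06% of all genes). Without the deeper one it was 22 (17.5%, against 18.2%), with 15 higher (13.9% of all genes). Without old library 1, 2 or 3, and without the deeper young library, the share lower was near or below that of all genes. In the kinetochore and centromere list 6 of 30 were lower (median -1.69). Kntc1, the Rod protein that brings dynein to kinetochores, had 3.54, 2.46 and 2.81 CPM in old libraries, against 49.3 and 39.6 CPM in young ones, a log2 fold change of -3.92 (SE 0.43, adjusted p = 0.00522). Casc5, the Knl1 scaffold of the outer kinetochore, had 0.151, 0 and 0.191 CPM in old libraries, against 12.6 and 13.5 CPM in young ones (adjusted p = 0.02). Nsl1, of the Mis12 complex, had 0.301, 0.0607 and 0 CPM in old libraries, against 8.17 and 11.6 CPM in young ones (adjusted p = 0.0306). Hjurp, the chaperone of Cenpa, was counted well in both ages, at 65.3 ± 11.2 CPM in old (SD, n = 3) and 158 ± 35.3 CPM in young (SD, n = 2), a log2 fold change of -1.27 (SE 0.27, adjusted p = 0.0266). In the list of spindle motors, centrosome and cytokinesis 4 of 34 were lower (median -1.38), among them the centriole duplication factor Stil with 3 counts in old against 293 in young libraries. Scaled for depth its ratio of old over young was 0.00261 (exact interval for counting error 0.000536 to 0.00772). The other 3 were as thinly counted in old cells. They were the spindle protein Ckap2, with 1 count in old against 193 in young libraries (ratio 0.00132, 3.33e-05 to 0.00746), Depdc1b, with 3 in old against 139 in young ones (120 of them in the shallower library, ratio 0.00551, 0.00112 to 0.0164), and the kinesin Kif18b, with 2 in old against 145 in young ones (140 of them in the deeper library, ratio 0.00352, 0.000423 to 0.013). Of the G2/M cyclins and Cdk1 control genes 1 of 11 was lower, the kinase Melk, with 1 count in old against 78 in young libraries (ratio 0.00327, 8.18e-05 to 0.0188), and of the condensin and cohesin genes 3 of 21, where the median was 0.15. There the condensin subunits Ncapd2 (8.81 ± 2.56 CPM in old, n = 3, and 46.7 ± 3.49 CPM in young, n = 2, SD) and Smc2 (4.30 ± 2.11 CPM in old and 33.5 ± 11.5 CPM in young) fell by 2.41 and 2.95 on the log2 scale (adjusted p = 0.0142 and 0.0223). Esco2, which acetylates cohesin in S phase, had no count in old libraries against 75 in young ones, 61 of them in the shallower library. With a floor of 3 counts over the old group, it was at least 97.9-fold lower than the pooled young group. The young libraries stood far apart, at 9.06 CPM (shallower) and 1.01 CPM (deeper), so this bound does not hold for the deeper one alone. No gene of the anaphase-promoting complex (16 tested, median 0.26) or of the MuvB, DREAM and B-Myb regulators (16 tested, median 0.45) passed the edgeR test in either direction. At an unadjusted p under 0.05, 1 gene of the anaphase-promoting complex was higher and none of the regulators differed, and DESeq2 called none in either list.

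The marks at the starts of the members were read from 1 library per age, so these are counts with no test. H3K27me3, the mark of Polycomb repression, lay within 1000 bases of the start of 13 of the 42 members in old cells (31.0%, against 41.5% of 22495 starts) and of 2 in young cells (4.76%, against 28.0%). With an overlap of at least 500 bases, 12 members were left in old cells (against 40.5% of all starts) and 1 in young cells (against 26.7%). Among regions above the list's median score, 9 were left in old cells (against 32.8%) and 1 in young cells (against 23.1%). It was present in old cells only at 12 members (28.6%, against 18.4% of all starts) and in young cells only at 1, Bub1 (2.38%, against 4.8%). The old list covers 649152000 bases and the young one 451824000, so more of the genome is marked in the old list as a whole. The 138 other mitosis genes had the mark at 26.8% of starts in old cells and 5.07% in young cells. At the start of Mki67, a region of 25 kb was listed in old cells (chr7:142896001-142921000) and one of 11 kb in young cells (chr7:142909001-142920000), which does not cover the start (142908062) and shares less than 500 bases with the window. The other members marked in old cells were Kif4 (97 kb), Cdc20 (66 kb), Cenpa (30 kb), Birc5 (17 kb), Cdca3 (16 kb), Ube2c (13 kb), Cenpf (9 kb), Cdk1 (8 kb), and Aurka, Espl1, Kif11 and Ect2 (5 kb each, the smallest width in the list). All 13 old regions extend past the span of the gene that holds the start, such as that at Cdc20 (chr4:118098001-118164000). The old region at Birc5 (chr11:117711001-117728000) does not cover the start (117710551). Nor does the old region at Cdca3 (chr6:124781001-124797000, start 124780194). Of the 13 members marked in old cells 7 were called lower in RNA (median log2 fold change -4.02), and of the 29 without it 10 (median -4.29). The start of Bub1 carried a 24 kb region in young cells, where its RNA was higher.

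H3K4me1, a mark of enhancers and of the flanks of active starts, lay at 34 of the 42 starts in old cells (81.0%, against 30.0% of all starts and 47.3% of CpG-rich ones) and at all 42 in young cells (100%, against 45.6% and 69.0%). CpG-rich starts are those with at least 40 CpGs within 500 bases, and the members hold 38 to 108. The 8 members marked in young cells only (19.0%, against 19.8% of all starts) were Ttk, Mki67, Cenpf, Ndc80, Spc25, Cdc20, Ube2c and Kif4. Of these 8, 5 were called lower in RNA, against 17 of all 42 members and 7.93% of all genes tested. A link between the mark and RNA was not tested. No member was marked in old cells only (against 4.21%). The old list is the weaker one, with 6% of tags in peaks, against 12.45% in the young list, and 36207 peaks, against 77291 in the young list. The windows held 43 peaks in old and 77 in young cells, of which 9 in old and 7 in young cells were within 200 bases of the start. H3K27ac, the mark of active elements, was mapped in young cells only and lay at 16 starts (38.1%, against 34.4% of all and 58.3% of CpG-rich starts), or at 9 among peaks above the median score. Mki67, Top2a and Cenpf, all lower in old RNA, were not among them. Of the 16 members with H3K27ac 4 were called lower in RNA (Kif11, Aspm, Kif20b and Ect2), and of the 26 without it 13.

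**Figure D4:**
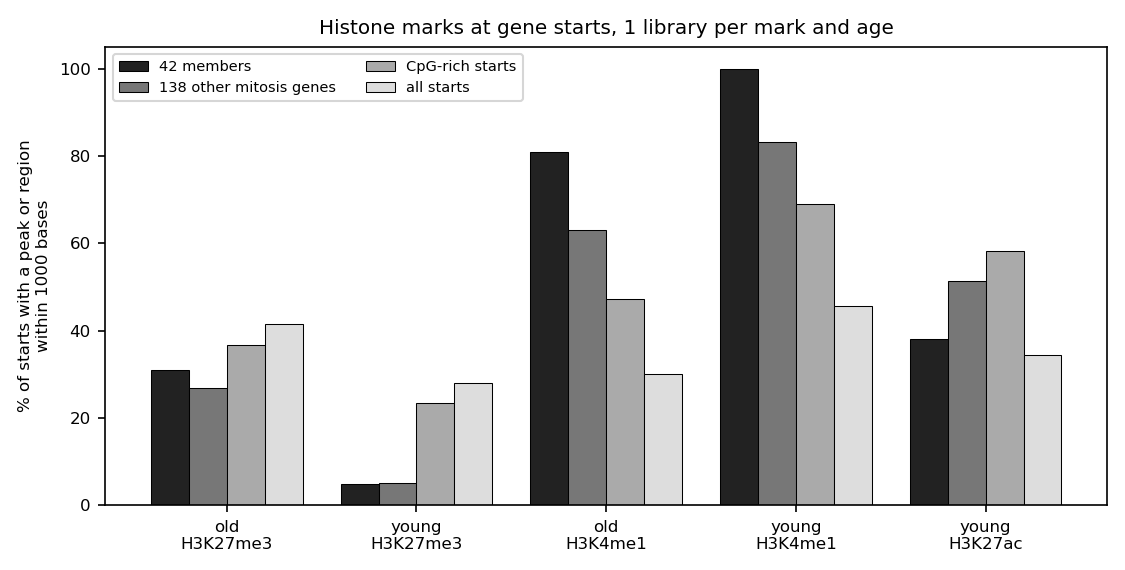
Percent of gene starts with a peak or region within 1000 bases, for H3K27me3 and H3K4me1 in old and young cells and H3K27ac in young cells, with bars for the 42 members, 138 other mitosis genes, CpG-rich starts and all starts. Members reach 31.0% in old and 4.76% in young cells for H3K27me3, and 81.0% in old and 100% in young cells for H3K4me1.

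Member promoters had little CpG methylation in both ages. Within 500 bases of the start, the median over the 42 members was 5.21% in old cells and 4.21% in young cells, close to CpG-rich starts, at 5.06% in old and 5.08% in young cells. Within 1000 bases the order of the member medians turned round, at 6.89% in old and 7.24% in young cells. Values ran from 1.37% (Kif23) to 10.0% (Bub1b) in old cells and from 0.578% (Kif4) to 15.6% (Bub1b) in young cells, each resting on at least 1134 calls in old and 1038 in young cells. Within 500 bases no member differed by 10 points or more, against 12.2% of all promoters and 1.57% of CpG-rich ones. Within 1000 bases Ccnb2 did, with 6.93% in old and 18.9% in young cells. The promoter values that follow are again for 500 bases. Methylation was higher in old cells at 24 of the 42, against 49.8% of all promoters. The 95% Wilson intervals, which cover counting error only, lay apart with old higher at 17 members and with old lower at 11, and they overlapped at 14. The widest differences were at Ccnb2, with 3.58% in old and 12.5% in young cells, Tpx2, with 6.70% in old and 14.9% in young cells, and Aurkb, with 9.81% in old and 2.84% in young cells. Ccnb2 RNA was lower in old cells as well, and the Mki67 promoter, whose RNA was also lower, stood at 7.19% in old and 3.68% in young cells. Of the shores, 500 to 2000 bases from the start, 7 differed by 10 points or more (16.7%, against 16.4% of all genes), 5 of them higher in old cells. Cenpa was the farthest above its young value, with 61.8% in old and 44.1% in young cells, and Prc1 the farthest below, with 54.3% in old and 68.9% in young cells. Shores of 24 members were higher in old cells, against 52.0% of all genes, with medians of 45.3% in old and 41.9% in young cells. Gene bodies were densely methylated, at a median of 91.1% in old and 91.8% in young cells, against 83.1% in both ages over all genes. No body differed by 10 points (against 4.1% of all genes), and 15 of 42 were higher in old cells (against 51.4%). Over the whole libraries 72.4% of calls were methylated in old and 75.5% in young cells.

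**Figure D5:**
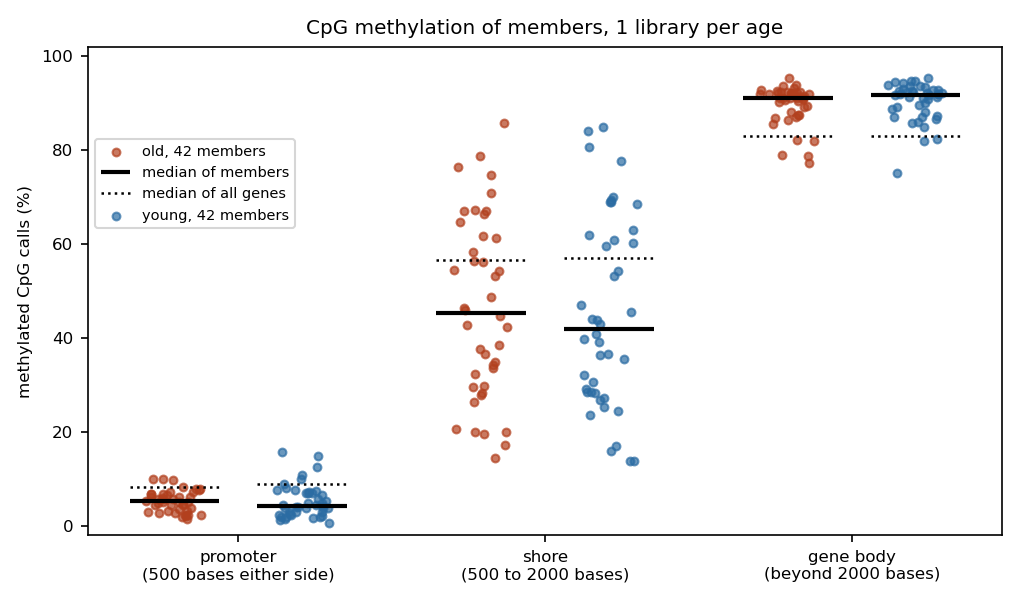
Percent of methylated CpG calls at promoters, shores and gene bodies of the 42 members in 1 old (red) and 1 young (blue) library, with 1 point a member, solid bars for the members' median and dotted bars for the median of all genes. Promoter medians are 5.21% in old and 4.21% in young cells, and body medians 91.1% in old and 91.8% in young cells.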

How the data were processed

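RNA was counted in 3 old and 2 young libraries, and chromatin marks and CpG methylation were read from 1 library per mark and age. The authors deposited unnormalised read counts for RefSeq transcripts (mm9), and its young columns carry no replicate number. A second table that the authors deposited as FPKM is not scaled to depth (a signal of unknown scale), and its column for old library 3 is identical to the shallower young one in 100% of entries, so it gave positions and relative lengths only. The tools in the submitters' processing notes are STAR, HOMER, edgeR, Bowtie 0.12.7 and CASAVA 1.8.2, with no step for each. HOMER called the peaks of H3K27ac and H3K4me1, per the file headers, and the deposited peak score and p-value columns served only to rank peaks. The sources used here do not name the caller of the H3K27me3 regions. The deposited CpG tables give a methylated fraction and a coverage per CpG, from which methylated calls were recovered. Mean coverage was 29.3 in the old and 43.2 in the young library.

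Each gene was represented by its transcript with most counts. Counts were compared with edgeR 4.0.16 (quasi-likelihood, TMM factors, filterByExpr, R 4.3.3), adjusted over all 15544 genes tested, at a threshold of 0.05, after the scripts had been tested on simulated counts. CPM use TMM-scaled library sizes. CpGs needed a coverage of 5 and windows at least 3 CpGs. Alternatives were RLE factors, no filter, the mean over transcripts, leaving out each library, DESeq2 1.42.0, other windows, coverage minimums of 1 and 10, stricter peak scores and overlaps. The 42 members were named in full where they passed the test or were among the 10 with the highest mean CPM, and other mitosis genes by up to 4 called genes a list with the smallest adjusted p. Nothing says whether the pools of a group came from separate sorts, so p-values measure the spread between these libraries. The members and the gene lists were chosen with earlier results of these data known.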

Additional observations from a re-analysis of the deposited data

How the results depend on the processing

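Directions held far better than single calls. Over the alternatives the median log2 fold change of the members stayed between -4.44 and -3.45, while the number of members called, all of them lower in old except 1 higher without the shallower young library, ranged from 5 to 25 when 1 library was left out (5 to 24 lower), and DESeq2 called 28. The share of all genes called lower moved as well, between 1.81% and 18.2% without 1 library and to 15.7% in DESeq2. The other mitosis genes called lower ranged from 1 to 26 (0.8% to 19.5% of those tested) without 1 library and numbered 28 (21.9%) in DESeq2. With RLE factors the median log2 fold change of all genes was -0.17, against -0.05 with TMM, and 18 members were lower (against 8.8% of all genes). With the mean over transcripts 17 members were lower (against 7.95% of all genes), and with no filter 19 (against 7.99%). Of the values of named members under these settings 151 kept direction and side of the threshold, 43 lost the call, 12 gained it, and 1 reversed, Foxm1 at 0.68 without the deeper young library (its range without 1 library was -4.59 to 0.68). This tally covers only the 23 members named in full. Aurka, which is not among them, also changed direction, from a log2 fold change of 0.44 to -0.21 without old library 2. The cause was not tested for Foxm1 or Aurka. A promoter window of 1000 bases gave methylation medians of 6.89% in old and 7.24% in young cells, which turns their order round. Above each list's median score, H3K27me3 was left at 9 members in old and 1 in young cells, and young H3K27ac at 9. With an overlap of at least 500 bases, H3K27me3 was left at 12 members in old and 1 in young cells. The overlap of 500 bases could not be applied to H3K4me1, whose peaks are narrower than that. No paired analysis was possible because the young columns carry no replicate number. With 6377619 counts in the shallower young library and most members under 1 CPM in old cells, fold changes of single members are imprecise (median SE 1.13).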

Other observations

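The promoter letters that the members share were also looked up in other genes. TTTGAA from 100 bases before the start together with at least 2 CCAAT boxes was found in the promoters of 296 genes that are not members. Of these 92 were tested in RNA, and edgeR called 6 lower (6.52%) and 0 higher in old cells, against 7.89% lower among all tested genes with a promoter entry. The 6 were Kntc1 and Kif18b, which belong to the other mitosis lists, the histone chaperone Asf1b, Prr11, Cnn1 and Dhrs3. Asf1b stood at 0.351 ± 0.293 CPM in old libraries (SD, n = 3) and 13.5 ± 7.40 CPM in young ones (SD, n = 2). Among the members themselves, 14 of the 27 with a TTTGAA match in that window were lower in old RNA, and 2 of the 8 without one, with a median log2 fold change of -4.50 in both. Of the 110 other mitosis genes with a promoter entry 28 held such a match (25.5%) and 14 held both features.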
